A study of Rattus norvegicus with 6 samples.

Results

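The genes described here encode the linker and core histones, the proteins that package DNA into chromatin. They were chosen by symbol alone, as every row whose name starts with Hist1h, Hist2h, Hist3h, Hist4h, H1f, H2af or H3f, which gave 48 of 31038 rows. The counts come from rat cells that the labels call myocardial and NRVM, without expanding that abbreviation, grown from embryonic rat heart muscle in serum-containing medium. Of the 6 libraries, 3 came from cells given a control siRNA and 3 from cells given an siRNA against eIF3m, a subunit of the translation initiation factor complex eIF3. The protocol field of each of the 6 also carries a text on dexamethasone, isobutylmethylxanthine and insulin, and whether these cells received them is not stated. The labels give no age, strain or number of cultures, so p-values measure only how far these samples spread, and that spread may be technical.

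In a nucleosome, DNA winds around core histones of the families H2A, H2B, H3 and H4, and a linker histone of the H1 family binds where the DNA enters and leaves. Most histone genes lie in clusters and are replication-dependent: they are transcribed in S phase, and their mRNAs end in a stem-loop in place of a poly(A) tail. Variant genes mostly lie elsewhere, give polyadenylated mRNAs and supply histones outside S phase, although H2afx also gives a stem-loop mRNA in S phase. Among them is the linker gene H1f0, known for its expression in resting and differentiated cells. The labels name an mRNA library kit and total RNA and do not say whether RNA with poly(A) tails was selected, so the low counts of replication-dependent genes describe these libraries and not the cells.

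By symbol, the 48 genes were 5 replication-dependent linker, 30 replication-dependent core, 4 variant linker and 9 variant core genes. Of these, 14 were measurable, meaning that they passed edgeR's filter on low counts: 1, 4, 2 and 7 of the 4 classes in that order. A further 29 had between 1 and 61 counts over the 6 libraries together and were not tested. The remaining 5, Hist1h2aa, Hist1h2ba, Hist2h4a, H1fnt and H2afb3, were at 0 throughout, which allows up to 3 counts or 0.287 to 1.33 CPM depending on the library. CPM is a gene's counts scaled to the library's TMM-adjusted total of tested genes. Values of single libraries are given in the order replicate 1, 2 and 3. Most histone proteins of a family are encoded by several near-identical copies, and the treatment of reads that match more than 1 copy was not stated, so values of single replication-dependent genes are uncertain.

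The 250 bases before the start of the genes on which the results turn are printed here, because the linker genes that rose together differ in the motifs found within them. They are RefSeq sequences of build GRCr8, not the rn6 build of the counts, and run 5′ to 3′ on the gene's strand. Capitals mark matches on either strand to CCAAT, to TATAAA, to TTCGCGC or TTGGCGC (a core of E2F sites), to TTTGCAT (a core of the octamer of H2B promoters) or to AAACACA (the H1 box of linker promoters). The match to TTGGCGC in the last sequence overlaps a CCAAT. Hist1h1c is a listed older name of both H1f2 and H1f4, so both are shown. Hist1h1d is listed for H1f4 and H4f3, and H4f3 has its own row under a LOC number. By elimination, that leaves H1f4 for Hist1h1d, which was not tested, and H1f2 for Hist1h1c.
H1f0 (chr7:112473030-112473279, plus strand): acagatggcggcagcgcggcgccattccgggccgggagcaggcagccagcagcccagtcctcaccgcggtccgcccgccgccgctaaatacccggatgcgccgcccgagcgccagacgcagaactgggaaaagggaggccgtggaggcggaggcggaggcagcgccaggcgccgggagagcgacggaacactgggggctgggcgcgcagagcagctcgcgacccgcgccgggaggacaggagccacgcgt
H1fx, now H1f10 (chr4:121998898-121999147, minus strand): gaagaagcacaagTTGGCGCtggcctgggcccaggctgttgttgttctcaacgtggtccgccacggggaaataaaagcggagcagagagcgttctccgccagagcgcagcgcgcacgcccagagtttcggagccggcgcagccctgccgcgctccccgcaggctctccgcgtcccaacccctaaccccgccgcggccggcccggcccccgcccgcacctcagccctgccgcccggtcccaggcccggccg
Hist1h1c as H1f2 (chr17:41820454-41820703, minus strand): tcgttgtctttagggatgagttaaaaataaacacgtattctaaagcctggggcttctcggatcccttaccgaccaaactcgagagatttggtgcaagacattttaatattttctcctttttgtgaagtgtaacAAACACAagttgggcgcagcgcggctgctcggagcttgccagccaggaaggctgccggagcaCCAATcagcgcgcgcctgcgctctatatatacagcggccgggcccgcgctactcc
Hist1h1c as H1f4 (chr17:41914175-41914424, plus strand): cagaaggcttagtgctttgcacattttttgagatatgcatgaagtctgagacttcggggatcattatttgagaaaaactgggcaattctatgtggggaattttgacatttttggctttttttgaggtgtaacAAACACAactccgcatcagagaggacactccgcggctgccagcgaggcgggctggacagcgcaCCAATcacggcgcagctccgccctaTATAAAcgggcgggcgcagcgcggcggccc
H2afv, now H2az2 (chr14:85526069-85526318, minus strand): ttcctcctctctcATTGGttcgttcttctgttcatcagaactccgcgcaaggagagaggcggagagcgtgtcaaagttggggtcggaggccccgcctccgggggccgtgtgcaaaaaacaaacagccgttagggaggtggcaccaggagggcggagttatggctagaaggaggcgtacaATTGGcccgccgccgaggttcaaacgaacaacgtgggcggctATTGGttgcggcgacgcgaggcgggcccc
H2afz, now H2az1 (chr2:229028845-229029094, plus strand): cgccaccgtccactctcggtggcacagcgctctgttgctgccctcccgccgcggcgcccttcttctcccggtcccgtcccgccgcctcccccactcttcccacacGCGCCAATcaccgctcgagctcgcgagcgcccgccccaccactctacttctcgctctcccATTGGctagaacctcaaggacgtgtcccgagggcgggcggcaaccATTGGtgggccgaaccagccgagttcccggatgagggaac

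The stretches of H1f2 and H1f4 both hold an H1 box and, closer to the start, a CCAAT, at -117 and -55 in H1f2 and at -118 and -55 in H1f4. Neither motif was found in those of H1f0 and H1fx. The stretches are set by the RefSeq start, so a motif further upstream would have been missed. G and C made up 74.8% and 72.8% of the bases in H1f0 and H1fx, against 52% and 52.4% in H1f2 and H1f4. For the motif counts, the window was extended by 50 bases after the start, where H2afz also has a TATAAA. Exactly 1 RefSeq histone gene with a window was used for 38 of the 48 genes. Hist1h2ai is among these, although its second listed match, hist1h2ail2, was left out. CCAAT was in 32 of these 38, against 37.5% of 33469 windows of the same length. Among the replication-dependent core genes, CCAAT was in 22 of 23, TATAAA in 15 (14.2% of all windows) and TTTGCAT in 11 (4.68%). TTTGCAT was in 5 of 9 H2B and 6 of 12 H2A windows. AAACACA was in 6 of the 38 (6.99% of all windows), and TTCGCGC or TTGGCGC in 7 (3.66%). These matches are descriptions of the letters, and paralogous promoters are not independent of each other.

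Total counts per library ran from 2156186, in eIF3m replicate 2, to 10061575, in eIF3m replicate 1, so eIF3m replicate 2 limits what can be seen of weakly counted genes. The targeted gene, Eif3m, was at 138, 136 and 141 CPM with the control siRNA against 92.0, 84.1 and 87.6 CPM with the eIF3m siRNA (log2 fold change -0.64 ± 0.05 SE, adjusted p = 1.41e-07, edgeR quasi-likelihood test, as for each adjusted p below). Of 10 cardiomyocyte markers, 8 had a control mean under 5 CPM, Myh6, Myh7 and Myl2 among them and at most 11 counts in any library. Tnnt2, another of them, was at 366 ± 8.87 CPM in controls and 152 ± 8.41 in eIF3m libraries. Skeletal myoblast markers summed to 59.9 to 65.7 CPM in controls and 30.1 to 36.7 in eIF3m libraries (2 of 3 tested fell, Myog and Des, and Pax7 was at 0). Fibroblast markers, nearly all Col1a1, summed to 12429 to 12600 and 13396 to 13781 CPM (of 4 tested, 3 rose and Thy1 fell). Of those that rose, Dcn and Lum were highest in eIF3m replicate 1. Dcn was at 55.5, 2.21 and 1.80 CPM in eIF3m replicates 1, 2 and 3, against a control mean of 1.09. Lum was at 10.3, 3.98 and 2.89 CPM, against 0.656. The part of these markers in the histone values was not tested. eIF3m replicate 1 stood apart: its summed CPM of red blood cell markers was 6229, against 50.8 and 230 in the other eIF3m libraries and 31.8 to 77.4 in controls. Endothelial markers summed to 158 CPM there, against at most 13.7 in the other 5 libraries, and leukocyte markers to 26.1, against at most 2.69. In whole-culture RNA, fewer cells of a type and less RNA per cell cannot be told apart.

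The data show a rise of linker histone transcripts when eIF3m was knocked down, with smaller rises among the variant core genes. All 3 measurable linker genes rose, by 2.30-fold to 3.18-fold, and 4 of 7 variant core genes rose, by 1.21-fold to 1.97-fold. Such folds are ratios of mean CPM and can differ from the log2 fold changes of the fit. By the fit H1fx was the highest, at 1.72, and H1f0 was at 1.67. None of the 14 measurable genes fell. In all, 7 of 14 were called higher, against 17.4% of the 12724 genes tested in the same fit, and 0 were called lower, against 21.2% (either direction 38.7%). Their median log2 fold change was 0.31, beside 0.01 over all genes tested. The groups' libraries did not overlap, with eIF3m above, for 9 of the 14, against 23.3% of all genes tested, and with eIF3m below for 0, against 25.3%.

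H1f0 encodes the replacement linker histone of resting and differentiated cells. It was at 239, 248 and 232 CPM with the control siRNA against 747, 782 and 753 CPM with the eIF3m siRNA. Every eIF3m library lay far above every control library, and the eIF3m libraries differed little among themselves. The mean rose from 239 ± 8.003 to 761 ± 18.8 CPM (SD, n = 3 per group), 3.18-fold (log2 fold change 1.67 ± 0.04 SE, adjusted p = 7.65e-14). Of all 12724 genes, 12 had a lower p and 86 a higher fold change. Among the 2134 tested genes with a mean of at least 100 CPM, a level chosen after the values were seen, 5 had a higher fold change.

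H1fx encodes another variant linker histone, expressed in many tissues. Its values were 15.3, 17.1 and 15.3 CPM in controls, against 55.8, 38.1 and 56.5 CPM in eIF3m libraries. eIF3m replicate 2 was the lowest of its group, on 86 counts, but still above the highest control. The mean rose from 15.9 ± 1.07 to 50.1 ± 10.5 CPM, 3.15-fold (log2 fold change 1.72 ± 0.12 SE, adjusted p = 2.96e-08).

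Hist1h1c, a linker gene of the large histone cluster, was the only replication-dependent linker gene that could be tested. It was at 51.8, 55.9 and 53.0 CPM in controls and at 123, 122 and 125 CPM in eIF3m libraries, with a wide gap between the groups. The mean rose from 53.6 ± 2.13 to 123 ± 1.66 CPM, 2.30-fold (log2 fold change 1.21 ± 0.05 SE, adjusted p = 1.37e-10). The other linker genes were barely seen. Hist1h1d had 4, 6 and 5 counts in controls and 24, 0 and 8 in eIF3m replicates 1, 2 and 3. Hist1h1b, Hist1h1a and the testis gene Hist1h1t had 9, 6 and 2 counts over all libraries. H1foo, known from oocytes, had 4.

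**Figure D1:**
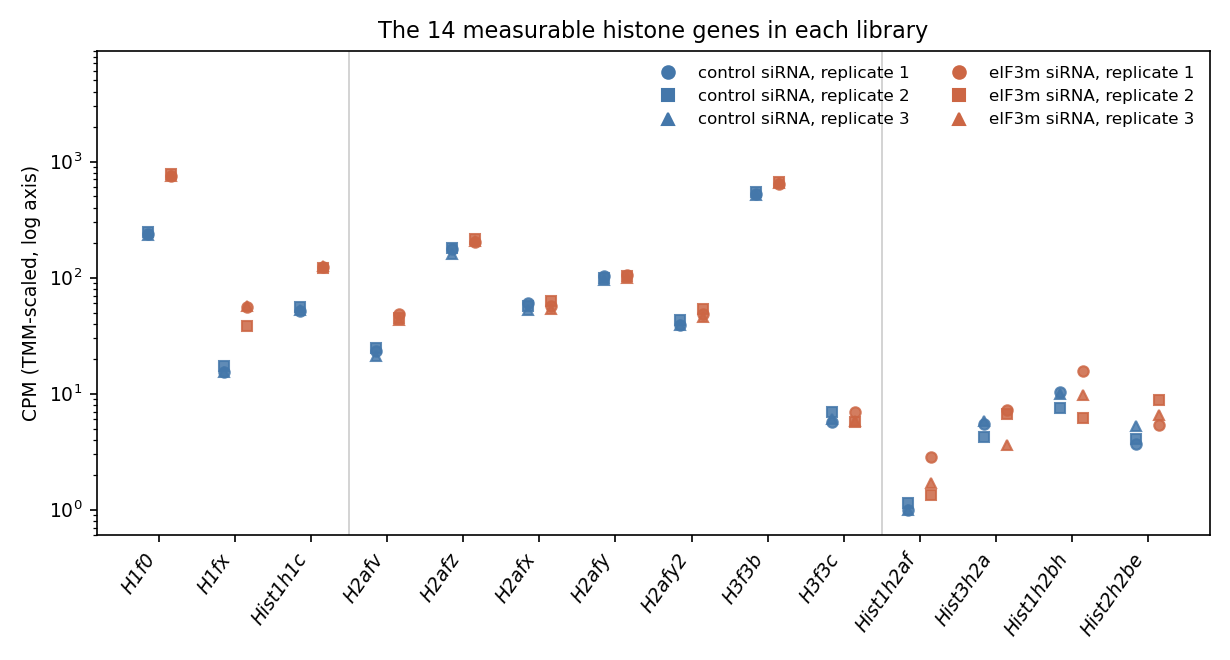
CPM on a log axis of the 14 measurable histone genes in each library, with circles, squares and triangles for replicates 1, 2 and 3 of the control siRNA (blue, left) and the eIF3m siRNA (orange, right). Vertical lines part linker, variant core and replication-dependent core genes. CPM is not corrected for gene length, so only the 2 groups of a gene can be compared: H1f0 goes from 232 to 248 in controls to 747 to 782 in eIF3m libraries, while H2afx overlaps.

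Linker transcripts took a larger share of the counts of the 48 genes in every eIF3m library. H3f3a, which stands under a LOC number, is not among the 48. It averaged 233 CPM in controls and 254 CPM in eIF3m libraries. The share of linker genes in the counts of all 48 genes was 24.3%, 24.7% and 24.6% in controls and 44.7%, 44.5% and 45.3% in eIF3m libraries. Linker genes thus held 24.5% ± 0.222 on average in controls and 44.8% ± 0.409 in eIF3m libraries (SD, n = 3 per group). Within the linker counts H1f0 held 77.2% ± 0.529 in controls and 81.3% ± 1.46 with the eIF3m siRNA. Hist1h1c held 17.3% ± 0.360 and 13.2% ± 0.242. These shares are of counts, not of molecules, because length is not corrected for. The log2 ratio of Hist1h1c to H1f0 moved by -0.46, from -2.16 ± 0.04 to -2.62 ± 0.05, with no overlap (exact two-sided permutation test, p = 0.1, the smallest that 3 against 3 libraries allow). For H1fx to H1f0 it moved by -0.03, from -3.91 ± 0.05 to -3.95 ± 0.36 (exact permutation p = 1). Of 5 such ratios within families, the smallest adjusted p was 0.125, so none could pass the threshold.

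**Figure D2:**
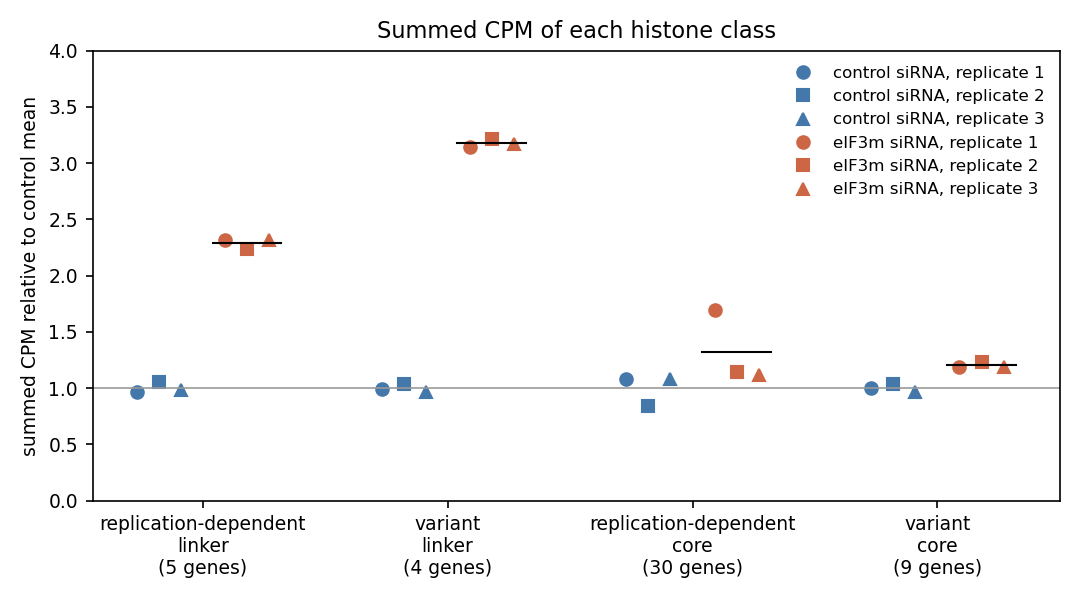
Summed CPM of each histone class in each library, divided by the control mean of that class (grey line at 1). Black bars are the eIF3m means, 2.29 for replication-dependent linker, 3.18 for variant linker, 1.32 for replication-dependent core and 1.21 for variant core genes, and in the third class eIF3m replicate 1 stands above the other 2 eIF3m libraries.

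Variant H2A genes differed among themselves. H2afv and H2afz encode the H2A.Z proteins, which mark promoters and are placed into chromatin by dedicated remodellers. H2afv was at 23.3, 24.6 and 21.2 CPM in controls and at 48.2, 45.2 and 42.8 CPM in eIF3m libraries. The groups were well apart, and the mean rose from 23.0 ± 1.70 to 45.4 ± 2.69 CPM, 1.97-fold (log2 fold change 0.99 ± 0.09 SE, adjusted p = 5.52e-07). H2afz was at 176, 181 and 159 CPM in controls and at 203, 216 and 205 CPM in eIF3m libraries. It rose 1.21-fold (0.27 ± 0.06 SE, adjusted p = 0.00151), without overlap. H2afv counts were 11.8% ± 0.139 of the sum of both genes in controls and 17.9% ± 1.11 in eIF3m libraries. The log2 ratio of H2afv to H2afz moved by 0.71, from -2.90 ± 0.02 to -2.20 ± 0.11 (exact permutation p = 0.1, the smallest possible, adjusted p = 0.125).

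H2afx encodes the histone that is phosphorylated at DNA breaks. It was at 60.8, 56.7 and 52.2 CPM in controls and at 57.1, 62.4 and 54.1 CPM in eIF3m libraries, and the groups overlapped (0.01 ± 0.07 SE, adjusted p = 0.985). H2afy and H2afy2 encode the macroH2A proteins, which carry a large extra domain and are known from silent chromatin. H2afy was at 103, 99.7 and 95.7 CPM in controls and at 106, 104 and 98.9 CPM in eIF3m libraries, again overlapping (0.05 ± 0.05 SE, adjusted p = 0.531). With no scaling factors it passed (0.19, adjusted p = 0.00869). H2afy2 was at 39.1, 43.1 and 39.1 CPM in controls and at 48.4, 53.6 and 45.3 CPM in eIF3m libraries. It rose 1.21-fold (0.25 ± 0.08 SE, adjusted p = 0.0199), a call that was lost with DESeq2 (0.24, adjusted p = 0.0512). Nor did H2afy2 pass without control replicate 1 (0.22, adjusted p = 0.081) or 3 (0.22, adjusted p = 0.0873), or without eIF3m replicate 1 (0.24, adjusted p = 0.0614) or 2 (0.21, adjusted p = 0.0502). H2afj had 1 count in all.

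H3f3b encodes H3.3, the H3 variant that is built into chromatin outside replication. It was at 520, 550.5 and 519 CPM in controls and at 637, 660.1 and 650.4 CPM in eIF3m libraries. The mean rose from 530 ± 17.8 to 649 ± 11.8 CPM, 1.22-fold (0.29 ± 0.04 SE, adjusted p = 9.22e-06), and the groups did not overlap. H3f3a, the second gene of H3.3, is not among the symbols. H3f3c, a pseudogene in RefSeq, was at 5.67, 6.91 and 6.04 CPM in controls and at 6.98, 5.76 and 5.77 CPM in eIF3m libraries (0.02 ± 0.21 SE, adjusted p = 0.965). Its values overlapped fully, and the SE is wide at this depth.

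**Figure D3:**
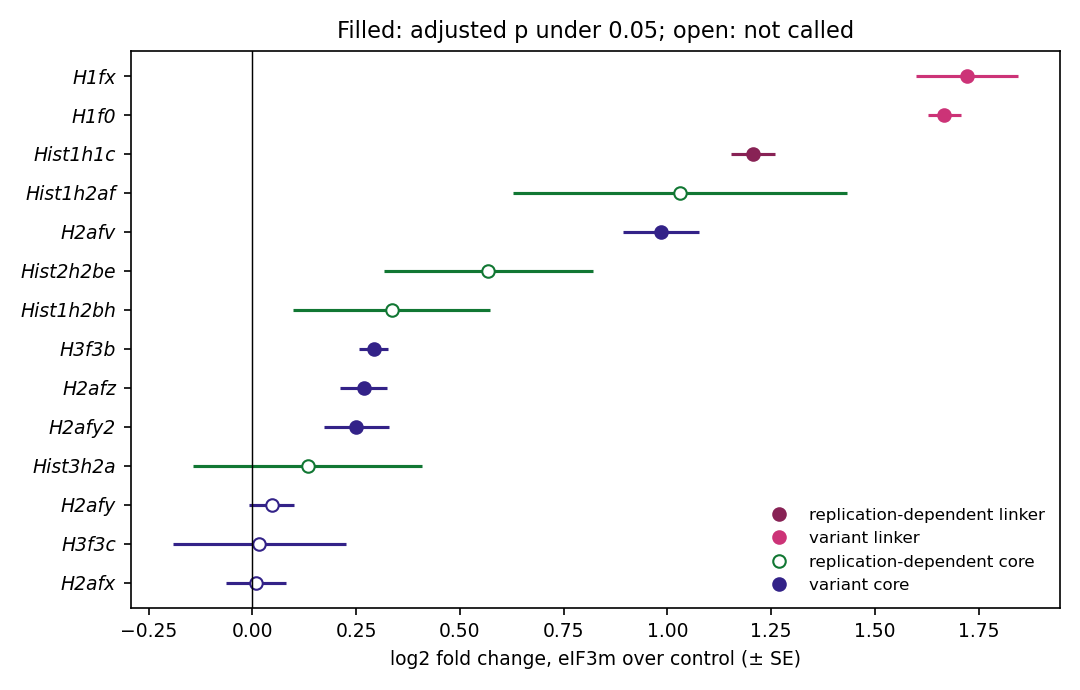
Log2 fold change of eIF3m over control siRNA (horizontal axis, bars are ± SE) of the 14 measurable histone genes, coloured by class, with filled points for adjusted p under 0.05. The 3 linker genes lie between 1.21 and 1.72, and the 4 open green points are the replication-dependent core genes, whose bars are the widest.

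None of the 4 measurable replication-dependent core genes passed the test with edgeR. An unadjusted p under 0.05 was reached by 2, Hist1h2af and Hist2h2be. Such a p was common: 5709 of the 12724 genes tested had a lower p than Hist2h2be. Hist1h2af, an H2A gene, had 7, 9 and 8 counts in controls and 30, 3 and 14 in eIF3m replicates 1, 2 and 3, or 0.993, 1.15 and 0.986 against 2.87, 1.33 and 1.68 CPM (1.03 ± 0.40 SE, adjusted p = 0.0554). Hist2h2be, an H2B gene, was at 3.69, 4.09 and 5.30 CPM in controls and at 5.35, 8.85 and 6.61 CPM in eIF3m libraries (0.57 ± 0.25 SE, adjusted p = 0.088). Neither overlapped between the groups, by a narrow margin. Without eIF3m replicate 1 Hist2h2be passed (0.75, adjusted p = 0.0426), and without eIF3m replicate 2 Hist1h2af passed (1.13, adjusted p = 0.0498). Without eIF3m replicate 1, which holds most of its eIF3m counts, Hist1h2af was at 0.60 (adjusted p = 0.423). Hist1h2bh, also H2B and a listed older name of both Hist1h2bq and H2bc9, was at 10.4, 7.55 and 9.86 CPM in controls and at 15.8, 6.20 and 9.74 CPM in eIF3m libraries (0.34 ± 0.24 SE, adjusted p = 0.288). Hist3h2a, an H2A gene, was at 5.53, 4.22 and 5.79 CPM and at 7.17, 6.64 and 3.61 CPM (0.13 ± 0.28 SE, adjusted p = 0.74). Both overlapped, and without eIF3m replicate 1 their values were -0.08 and -0.20 (adjusted p = 0.815 and adjusted p = 0.677). H2bc9 has its own row under a LOC number, at 0 counts, which by elimination leaves Hist1h2bq for Hist1h2bh.

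The 26 core genes of the clusters that were not tested had 52, 37 and 49 counts together in controls and 133, 15 and 61 in eIF3m replicates 1, 2 and 3. That is 7.38, 4.73 and 6.04 against 12.7, 6.64 and 7.34 CPM, where eIF3m replicate 1 is high and the rest overlap. The 3 H3 genes had 5, 4 and 6 counts in controls and 10, 2 and 7 in eIF3m libraries. The H4 gene Hist2h4 had 22 counts in eIF3m replicate 1 and 0 or 1 in each other library, and Hist1h4b had 6 there and at most 1 elsewhere. In 2 of the 26, each eIF3m library lay above each control in CPM: Hist1h2bo, with 2, 1 and 1 counts against 7, 3 and 6, and Hist3h2ba, with 0, 0 and 0 against 6, 1 and 6. Over all genes tested this held for 23.3%, and no such share was computed for rows too low to test. eIF3m replicate 1 is the library with the blood and endothelial markers given above, and their part in these counts was not tested. Summed over all 30 core genes of the clusters, CPM was 27.9, 21.8 and 27.97 in controls and 43.9, 29.7 and 29.0 in eIF3m libraries, a ratio of means of 1.32 ± 0.373 (SD), or 1.13 without eIF3m replicate 1. For the linker classes the same ratios were 2.29 ± 0.113 (replication-dependent) and 3.18 ± 0.117 (variant), and 2.28 and 3.19 without that library.

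**Figure D4:**
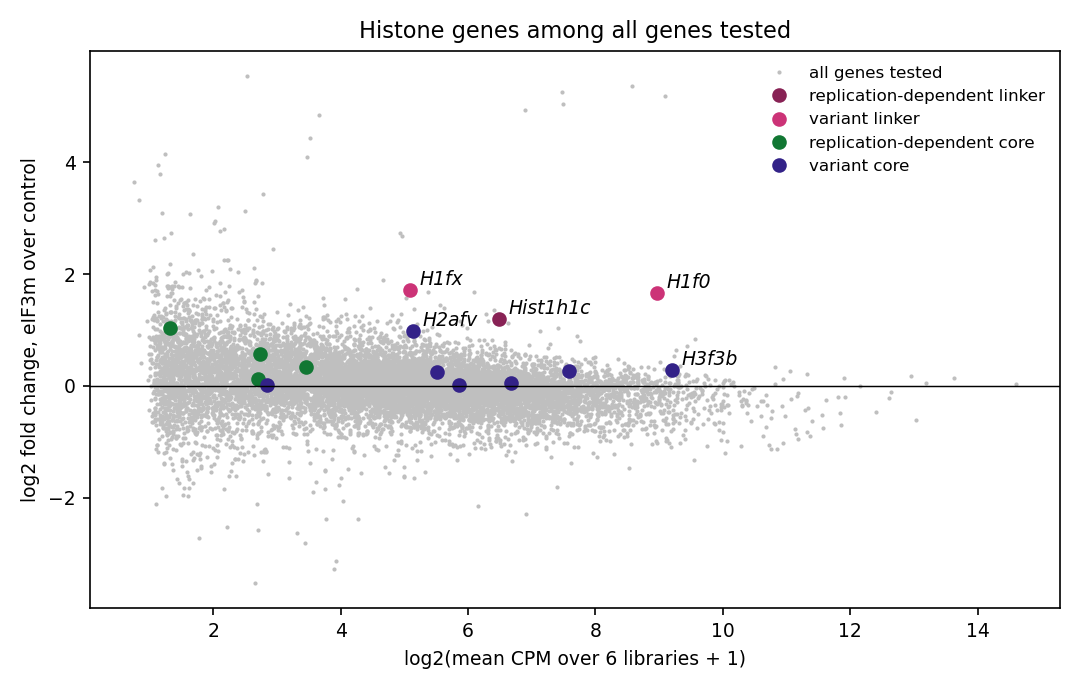
Log2 fold change of eIF3m over control siRNA against log2 of the mean CPM plus 1 for the 12724 genes tested (grey), with the histone genes coloured by class. H1f0, at 1.67, lies above nearly all genes of its level, and the replication-dependent core genes lie at the low end of the level axis.

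Genes that process, carry and deposit histones were read from lists chosen for function, but with earlier results of these data known. This holds for each list below, so the counts of called genes are descriptions. Of 22 tested genes of histone mRNA 3′ end formation and the histone locus body, 8 rose and 1 fell, beside 17.4% higher and 21.2% lower over all genes tested, with a median of 0.19 beside 0.01. Slbp, the protein that binds the stem-loop, was at 49.5, 55.5 and 59.6 CPM in controls and at 60.6, 59.8 and 63.9 CPM in eIF3m libraries (0.17 ± 0.07 SE, adjusted p = 0.079). Npat, the activator of the clustered histone genes, was at 26.2, 26.0 and 29.7 CPM and at 28.2, 31.9 and 39.4 CPM, with overlap (0.28 ± 0.12 SE, adjusted p = 0.0795). Neither passed the test, though Slbp did under 3 and Npat under 5 of 15 alternatives. Npat was at 0.45 without eIF3m replicate 1 (adjusted p = 0.00541) and at 0.10 without eIF3m replicate 3 (adjusted p = 0.587). Slbp was at 0.23 without control replicate 3 (adjusted p = 0.04) and at 0.09 without control replicate 1 (adjusted p = 0.346). Cstf2, a cleavage factor (0.46 ± 0.06 SE), Snrpf, a protein of the Sm ring (0.49 ± 0.07), Upf1, the helicase that takes part in histone mRNA decay (0.24 ± 0.05), and Eri1, the exonuclease that trims the stem-loop end (0.28 ± 0.07), rose. Without eIF3m replicate 3, Eri1 did not pass (0.22, adjusted p = 0.0568). Casp8ap2, a scaffold of the histone locus body named after its value was seen, was at 13.5, 18.3 and 12.4 CPM in controls and at 21.7, 21.7 and 21.0 CPM in eIF3m libraries (0.54 ± 0.14 SE, adjusted p = 0.00737). The gene that fell, Sympk, a scaffold of the cleavage complex, was at -0.15 ± 0.06 SE (adjusted p = 0.048) and did not pass under 12 of 15 alternatives.

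Of 31 tested histone chaperones and related genes, 14 rose and 5 fell, with a median of 0.21; the number that fell is near the 21.2% called lower over all genes tested, and 17.4% were called higher. Anp32e, the chaperone that removes H2A.Z, was at 122, 119 and 116 CPM in controls and at 154, 169 and 164 CPM in eIF3m libraries (0.44 ± 0.05 SE, adjusted p = 7.08e-06). Nasp, which guards the pool of free H3 and H4 and also binds linker histones, was at 58.1, 65.1 and 64.1 CPM and at 79.1, 80.6 and 80.6 CPM (0.35 ± 0.06 SE, adjusted p = 1.79e-04). Ptma, a linker-histone-binding acidic protein, rose by 0.30 ± 0.04 SE. Supt6h, which handles H3 and H4 during transcription, fell (-0.30 ± 0.05). Outside the 4 of lowest p, and named after their values were seen, Asf1b (0.83 ± 0.17), Tonsl (0.72 ± 0.13), Hjurp (0.66 ± 0.12) and Chaf1a (0.44 ± 0.10) rose. Partners within a complex, also chosen after their values were seen, did not all move one way. Of the HIRA complex, which deposits H3.3, Ubn1 (0.16 ± 0.06) and Ubn2 (0.40 ± 0.07) rose while Cabin1 fell (-0.20 ± 0.06). Hira itself was not called (0.25 ± 0.15, adjusted p = 0.211), and Cabin1 did not pass with DESeq2 (-0.20, adjusted p = 0.0656). Of the complex that deposits H2A.Z, Vps72 rose (0.44 ± 0.09) while Znhit1 fell (-0.39 ± 0.13), with overlapping libraries. Srcap of the same complex was not called (0.09 ± 0.05, adjusted p = 0.148). Daxx (-0.24 ± 0.07) and Ipo4 (-0.18 ± 0.05) were the others that fell. With no scaling factors, and also without control replicate 3, only Supt6h of the 5 passed.

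Among histone and high-mobility-group genes outside the symbol rule, 5 of 7 rose and 0 fell, beside 17.4% and 21.2% over all genes tested, with a median of 0.38. Cenpa, the H3 variant of centromeres, was at 22.0, 20.2 and 19.5 CPM in controls and at 35.0, 41.2 and 38.8 CPM in eIF3m libraries, clearly apart (0.88 ± 0.10 SE, adjusted p = 4.25e-06). Hmgb2 (0.60 ± 0.06 SE), Hmgn2 (0.38 ± 0.06) and Hmgb1 (0.34 ± 0.09), abundant chromatin proteins that bind DNA or nucleosomes, rose. Hmgn1, named after its value was seen, was called with overlapping libraries (0.54 ± 0.19 SE, adjusted p = 0.0405). Of 26 S phase genes, 19 rose and 0 fell, beside the same 17.4% and 21.2%, with a median of 0.45, and the 4 of lowest p were Ccna2, Prim1, Uhrf1 and Rrm2 (0.98, 0.59, 0.50 and 0.60). The 4 markers of dividing cells all rose, and their summed CPM was 295 to 300 in controls and 495 to 522 in eIF3m libraries. These values moved with those of the linker genes across the 2 groups, and their part in the linker result was not tested.

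**Figure D5:**
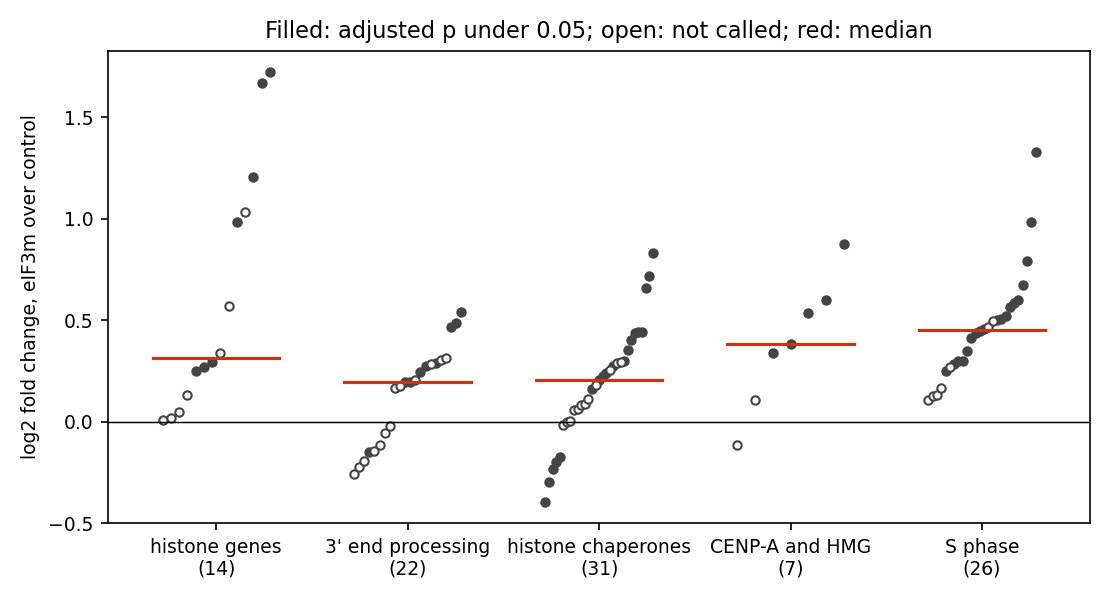
Log2 fold change of eIF3m over control siRNA for each tested gene of 5 lists (numbers of genes in brackets), sorted within a list, with filled points for adjusted p under 0.05 and red bars at the medians of 0.31, 0.19, 0.21, 0.38 and 0.45. In the first list the 3 linker genes are among the 4 called histone genes that reach 0.985 or more. These 4 lie above all of the 3′ end processing and chaperone genes shown. E2f2 of the S phase list, at 1.33, lies above Hist1h1c and H2afv.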

How the data were processed

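RNA was sequenced from 3 control and 3 eIF3m siRNA libraries, grouped and numbered by the labels. The authors deposited whole-number counts per gene symbol, not normalised. HISAT2 2.2.1, Trimmomatic 0.40, limma, featureCounts and DESeq2 are listed, with build rn6, per the submitters' processing notes. Annotation, strand and multi-mapping settings were not given in the sources used here. In each file 27 symbols turned into dates (0.203% to 0.216% of counts) were left out. The test was that of edgeR 4.0.16 under R 4.3.3 (filterByExpr, minimum count 10 and minimum total 15; TMM scaling; quasi-likelihood F-test, two-sided, no covariate; Benjamini-Hochberg adjusted p under 0.05 over 12724 genes), which was tested on simulated data. CPM uses the TMM-scaled total of tested genes. Each SE was worked back from the test, as the size of the log2 fold change over the square root of F. Same-numbered libraries did not vary together (correlation of deviations across genes 0.0271, -0.0122 and 0.0131 for numbers 1, 2 and 3), so no pairing was used. Alternatives covered scaling, DESeq2 1.42.0, limma-voom (limma 3.58.1), dispersion, filters, a replicate block and leaving out each library. Every measurable member is named; from each function list, Slbp, Npat, Cenpa and the 4 called genes of lowest p. The members and lists were chosen with earlier results of these data known. Promoter windows run from 250 bases before to 50 after the RefSeq start (GRCr8); 47 of 48 members matched a RefSeq gene, 8 of them more than 1. Floors cover counting error only.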

Additional observations from a re-analysis of the deposited data

How the results depend on the processing

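The calls of H1f0, H1fx, Hist1h1c, H2afv, H2afz and H3f3b kept their direction and their side of the threshold under all 15 alternatives, with log2 fold changes of 1.64 to 1.81, 1.65 to 1.87, 1.18 to 1.35, 0.92 to 1.13, 0.21 to 0.42 and 0.27 to 0.44. With no scaling factors the median of all genes moved from 0.01 to 0.16, 4163 genes were called higher and 1680 lower against 2220 and 2700, and with upper-quartile scaling 3015 and 2130. Summed CPM ratios of replication-dependent linker, variant linker and variant core genes were then 2.53, 3.515 and 1.33 with no scaling factors, and 3.33 and 1.26 for the variant classes with upper-quartile scaling. Called higher among replication-dependent core genes were 1 with upper-quartile scaling, 2 with no scaling factors, 2 with no filter (Hist3h2ba and Hist2h4) and 0 to 1 when a library was left out. In the 3′ end list 13 were higher with no scaling factors, and 0 were lower with RLE, upper-quartile or no scaling, the stricter filter, the replicate block, DESeq2 and limma-voom, and 0 to 1 when a library was left out. Among chaperones 23 were higher and 1 lower with no scaling factors, 2 lower with upper-quartile scaling, and 1 to 5 lower when a library was left out (1 without control replicate 3). Sign changes were seen only in values that never passed: Hist3h2a (-0.20) and Hist1h2bh (-0.0806) without eIF3m replicate 1; H3f3c with no filter (-0.00299), without control replicate 1 (-0.05) or 3 (-0.01) and without eIF3m replicate 1 (-0.10); H2afx with no filter (-0.00730), without control replicate 3 (-0.0511) and without eIF3m replicate 2 (-0.02). With a library left out these 4 ranged from -0.20 to 0.43 (Hist3h2a), -0.0806 to 0.48 (Hist1h2bh), -0.10 to 0.0924 (H3f3c) and -0.0511 to 0.0583 (H2afx). The cause was not tested. With the replicate number as a block, 2123 genes were higher and 2632 lower, and no call among the 14 genes changed; libraries share only a number. Low counts leave 29 of the 48 genes without a test unless the filter is dropped, and the calls then made rest on few reads.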

Other observations

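Histone genes also stand in the files under LOC numbers. Matching those numbers to RefSeq gene IDs, after the values of the named genes were known, gave 29 further rows, of which 5 were tested, 16 had counts too low to test and 8 were at 0. Some are pseudogenes, and not all are clearly separate genes. LOC100360754 matched Hist1h2ai, which is also a member symbol. LOC690131, LOC100359692 and LOC684828 matched genes that are also listed for the members Hist2h2aa3, Hist1h2bh and Hist1h1d. LOC100361558 is H3f3a, which encodes the same H3.3 protein as H3f3b. It was at 235, 234 and 230.2 CPM in controls, against 265, 255 and 240.3 CPM in eIF3m libraries, without overlap, but did not pass the edgeR test (0.12 ± 0.05 SE, adjusted p = 0.0635); it passed under 7 of 15 alternatives. LOC102548682, an H4 gene (H4cl1), had 10, 12 and 13 counts in controls and 42, 7 and 29 in eIF3m libraries, or 1.42, 1.54 and 1.60 against 4.01, 3.10 and 3.49 CPM. It was the only 1 of the 5 that was called (1.25 ± 0.31 SE, adjusted p = 0.00523), beside 17.4% called higher over all genes tested. This call held under the 14 alternatives that gave a value; the stricter filter removed the gene. The other 3 tested, the pseudogenes H3f3a-ps9 and H3f3a-ps3 and the H2B gene H2bcl1, lay between -0.14 and 0.63 and did not pass. LOC100912338, the H2B gene H2bc18, had 24 counts in eIF3m replicate 1, the library with blood markers, and 0 to 2 in each of the others.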
